A study of Helianthus annuus with 8 samples.

Results

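The 150 array probes described here are those with the clearest drop in signal in water-stressed sunflower leaves. They were chosen from the deposited log2 values by a margin, defined as the lower of the 2 controls labelled 45 days minus the higher of the 2 water deficit samples. A probe could enter only if it was spotted once and was well above background, by the flag of the scanner software, on all 5 control arrays. Of the 40243 non-control probes of the series, 40169 were spotted once and 26899 passed this detection step. Both water deficit arrays lay below both controls for 9167 of the 26899 (34.1%), and the 150 largest margins were kept. The water deficit contrast thus chose these probes, and their values in it are a description with no test. The head excision array was not used in the choice.

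Leaf RNA came from field plants of the sunflower (Helianthus annuus) hybrid VDH 481, and each sample was hybridized with Cy3 dye to its own 1-colour Agilent array. The 8 arrays were 2 untreated controls and 2 water deficit samples labelled 45 days, and 3 untreated controls and 1 head excision sample labelled 50 days. Water deficit was imposed by a plastic mesh laid 10 days before flowering, per the labels, which kept rain out of the soil and lowered its volumetric humidity by about 40%. For head excision the flower was cut off 4 days before flowering, and all samples share the hybrid, the field and the growing season. The study's methods give other days than the labels for leaf age and for the laying of the mesh, and the labels are followed here.

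The younger samples lay on slide 1 and the older ones on slide 2, so that age and slide cannot be told apart, while each treatment had its own controls on its slide. The study's methods describe a randomized complete block design in which a sample pools randomly selected plants of a field plot, but nothing in the labels ties an array to a block or plot, and the spread given here is that between arrays. The median spot signal of an array ranged from 89.1 to 145 units, between 69.8% and 73.4% of non-control spots were well above background, and 0 spots were saturated.

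A leaf that runs short of water closes its stomata, slows growth and photosynthesis, and may enter senescence, the programmed dismantling of the leaf in which chlorophyll is lost and nitrogen is moved to younger organs and seeds. Transcripts for photosynthesis, chlorophyll synthesis and growth are widely known to decline on that course. The flower head is the main sink of a sunflower plant, and its removal takes away the demand that draws carbon and nitrogen out of the leaves. The files give each probe a number and no gene name or sequence. No name of a non-control probe was found in the sunflower RefSeq gene table (0 of the 150 members and 0 of all 40243). Neither the genes nor the leaf origin of the RNA could thus be checked against markers. Every member name ends in the same design number, which is left off here, as in CUST_11046.

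Levels are given as log2 of the processed spot signal after normexp background correction and quantile normalization over the 8 arrays. Across the members the median level was 8.93 and 7.77 on control replicates 1 and 2 of 45 days, and 5.68 and 5.01 on water deficit replicates 1 and 2. It was 9.12, 8.98 and 9.33 on the 3 controls of 50 days and 8.33 after head excision. The water deficit arrays were the lowest of the 8, and the head excision array lay below the 3 controls of its age. Over all 26899 probes that passed the detection step, the array medians lay between 8.85 and 8.86.

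**Figure D1:**
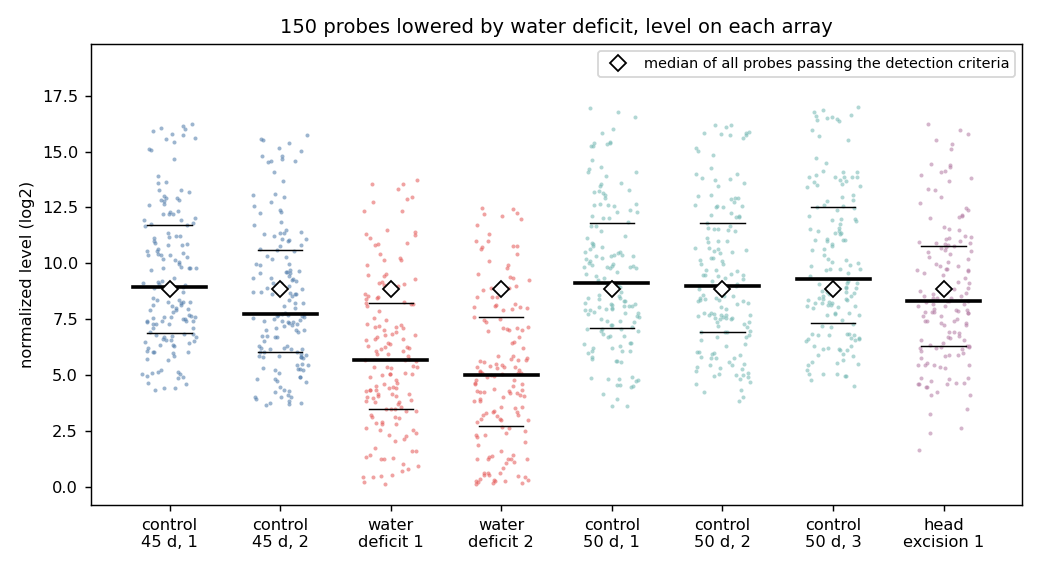
Normalized level (log2, vertical axis) of the 150 members on each of the 8 arrays, with 1 point per probe, thick bars for the median and thin bars for the quartiles; diamonds mark the median of all 26899 probes that passed the detection step. The member medians fall to 5.68 and 5.01 on the water deficit arrays and to 8.33 on the head excision array, while the diamonds stay at 8.85 to 8.86.

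The margins ran from 1.58 to 5.44 on the deposited log2 scale, with a median of 2.03. In group means, water deficit minus control ranged over the members from -7.62 to -1.95 log2 units, with a median of -3.14 against -0.06 over all 26899 probes. With median spot and background signals and a normexp offset of 50 the median was -1.49. The edge of the selection was smooth. CUST_37276 and CUST_29004, the last probes taken, had margins of 1.587 and 1.584, and the next probes, CUST_11913 and CUST_6272, had 1.583 each.

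CUST_11046 had the largest margin, 5.44. Its level was 7.39 and 7.73 on the controls of 45 days and 1.32 and 0.34 under water deficit, where it was not well above background. The controls of 50 days read 9.84, 10.22 and 9.75, and head excision 8.32. In spot signal before normalization these values correspond to 146 units on control replicate 1 of 45 days against 3.95 and 2.25 units under water deficit. This probe was well above background on all 6 other arrays.

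CUST_7683 followed with a margin of 4.50 and showed a wide spread between controls. It read 10.90 and 7.75 on the controls of 45 days, 2.88 and 0.53 under water deficit, 10.52, 9.32 and 12.59 on the controls of 50 days and 5.99 after head excision. The head excision value lay below all 5 controls and above both water deficit arrays. CUST_3091 had 7.43 and 6.33 on the younger controls, 0.47 and 1.28 under water deficit, 6.44, 9.08 and 9.45 on the older controls and 4.60 after head excision.

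For CUST_36845 the levels were 5.89 and 5.23 on the controls of 45 days and 0.95 and 0.30 under water deficit. On the older slide it read 6.77, 5.96 and 6.69 in controls and 6.36 after head excision, within the control range. CUST_9503 behaved alike, with 5.72 and 4.33 on the younger controls, 0.24 and 0.26 under water deficit, 6.45, 5.47 and 6.32 on the older controls and 6.11 after head excision. These 2 probes were not well above background under water deficit and were within the range of the controls after head excision.

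CUST_39010 and CUST_1427 stayed measurable under water deficit. CUST_39010 read 12.94 and 10.82 on the younger controls, 7.25 and 5.24 under water deficit, 13.30, 12.06 and 13.68 on the older controls and 11.63 after head excision. CUST_1427 read 11.74 and 9.57 on the younger controls, 6.09 and 5.41 under water deficit, 13.13, 13.00 and 13.51 on the older controls and 12.17 after head excision. In both, head excision lay under the lowest of its 3 controls.

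CUST_41065 was a bright probe, at 15.76 and 14.81 on the controls of 45 days and 11.30 and 10.77 under water deficit. Its older controls read 15.39, 15.81 and 16.85 and head excision 14.41. CUST_37125 read 5.70 and 5.47 on the younger controls, 1.64 and 1.26 under water deficit, 4.49, 3.87 and 4.55 on the older controls and 2.65 after head excision, and was 1 of 3 members not well above background on the head excision array (0.372% of all 26899 probes). CUST_28577, the last of the 10 largest margins, read 4.69 and 3.79 on the younger controls, 0.16 and 0.18 under water deficit, 6.23, 5.10 and 5.56 on the older controls and 4.50 after head excision.

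**Figure D2:**
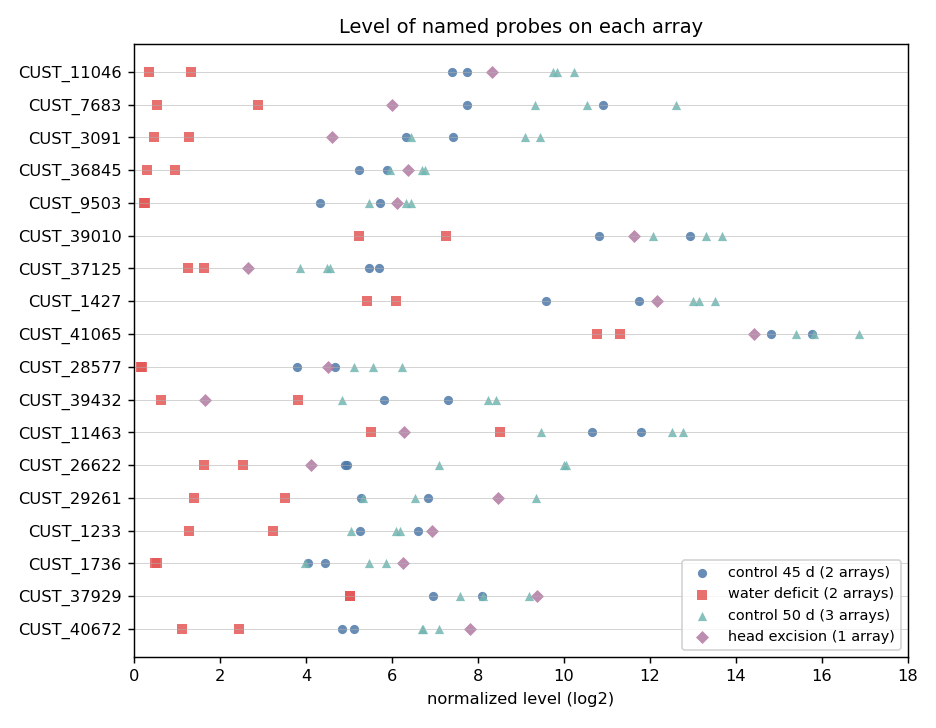
Normalized level (log2, horizontal axis) of 18 named probes on each array, with circles for the controls of 45 days, squares for water deficit, triangles for the controls of 50 days and a diamond for head excision. In the 10 upper probes, those with the largest margin, both squares lie left of every other symbol, and the diamond of CUST_7683 lies left of all its circles and triangles.

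Of the 150 members, 102 stayed well above background on both water deficit arrays, 21 on 1 of them and 27 on neither. Over all 26899 probes the share not well above background on both was 0.227% and on exactly 1 it was 0.599%. The rule used these arrays, so nothing is read from the contrast of shares. On the stricter criterion of a signal that is not positive and significant on either array, 3 of the 27 qualified. By array, 31 members were not well above background on water deficit replicate 1 and 44 on replicate 2.

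A fold change of a probe not well above background is only a bound. It was taken from the mean of the 2 controls over the mean, per water deficit array, of the higher of the probe's own level and the lowest level of any probe well above background. These lowest levels were 2.73 and 2.92. A probe could lie above them without the flag, as CUST_35083 did at 3.10 on water deficit replicate 1 and CUST_39155 at 3.26 on replicate 2. The flag thus has no sharp limit on this scale, and "at least" holds only for the lowest levels taken here. All 27 members had a bound above 1, and nothing is read from this, since the rule asked for flagged controls and a large margin. The bounds ran from at least 2.67-fold to at least 86.1-fold lower under water deficit, with a median of 4.48. The bound is on the ratio of means and does not cover the spread between arrays. CUST_7683 was at least 86.1-fold lower in means, although its own controls were 10.90 and 7.75. CUST_11046 was at least 26.7-fold lower and CUST_3091 at least 16.6-fold. CUST_35083 was at least 11.5-fold lower, with 7.10 and 5.96 on the controls and 3.10 and 0.64 under water deficit. CUST_11882 was at least 8.27-fold lower, although its own controls were 7.68 and 4.06. The 102 members measured on all 4 arrays had control to water deficit ratios from 3.87 to 49.7, with a median of 7.67.

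**Figure D3:**
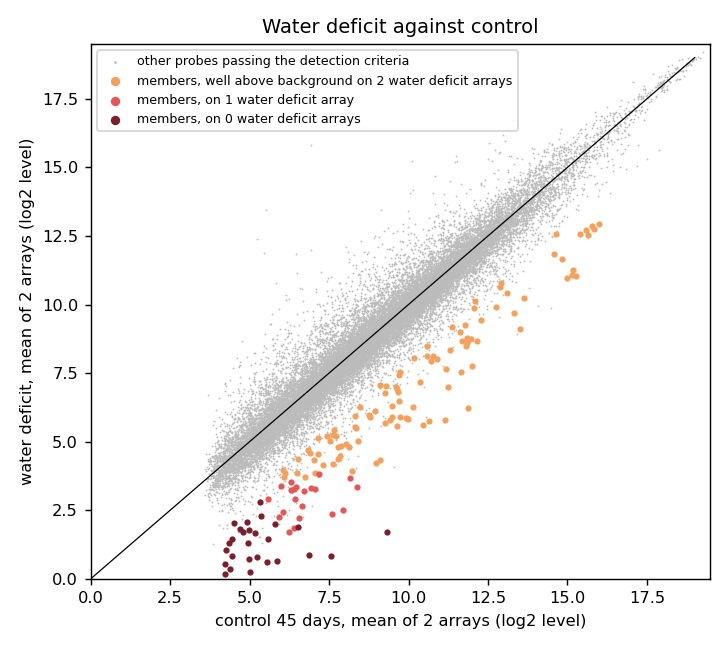
Mean log2 level of the 2 water deficit arrays (vertical axis) against that of the 2 controls of 45 days (horizontal axis) for the 26899 probes that passed the detection step, with the line of equal levels. The 102 members well above background on both water deficit arrays, the 21 on 1 and the 27 on neither are coloured; the members lie below the line because the rule chose them there, and those on neither array sit at the lower left.

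The 2 controls of 45 days were not alike for these probes. Replicate 2 read below replicate 1 in 127 of the 150, where 50.8% of all 26899 probes did so, and the median gap between replicates 1 and 2 was 0.87 log2 units against 0.0087. The gap exceeded 1 log2 unit, in either direction, in 65 members, against 7.44% of all probes. Under water deficit, replicate 2 was the lower array in 121 members (51% over all probes), with a median gap of 0.59 log2 units. These 4 arrays entered the ranking, and the figures are given as a description.

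The 3 controls of 50 days entered the choice only through their detection flag. The SD over them had a median of 0.60 log2 units in the members, with quartiles of 0.40 and 0.96, against a median of 0.22 over all probes, with quartiles of 0.13 and 0.36. Replicate 3 was the highest of the 3 controls in 90 members, where 32.4% of all probes had it highest, replicate 1 in 43 (36.4%) and replicate 2 in 17 (31.2%). Replicate 1 was the lowest in 72 members (35.7% over all probes), replicate 2 in 63 (34.1%) and replicate 3 in 15 (30.2%). The median SD of the members thus lay above the upper quartile of all probes, and replicate 3 tended to stand above the other controls.

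Against the controls of 45 days, those of 50 days read higher by a median of 0.70 log2 units in the members, against -0.0037 over all probes. The difference was 0.17 against control replicate 1 alone and 1.13 against control replicate 2 alone, so that the size of this difference depended on which of the younger controls was taken. All 3 older controls lay above both younger ones in 44 members (20.4% of all probes) and below both in 14 (20.9%). The younger controls helped to choose the members and lay on another slide, so no test was made. All 3 older controls lay above both water deficit arrays in 146 of the 150 members, where 34.9% of all probes had this order. The rule asked for low water deficit values and for detection in the older controls, so nothing is read from this order.

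**Figure D4:**
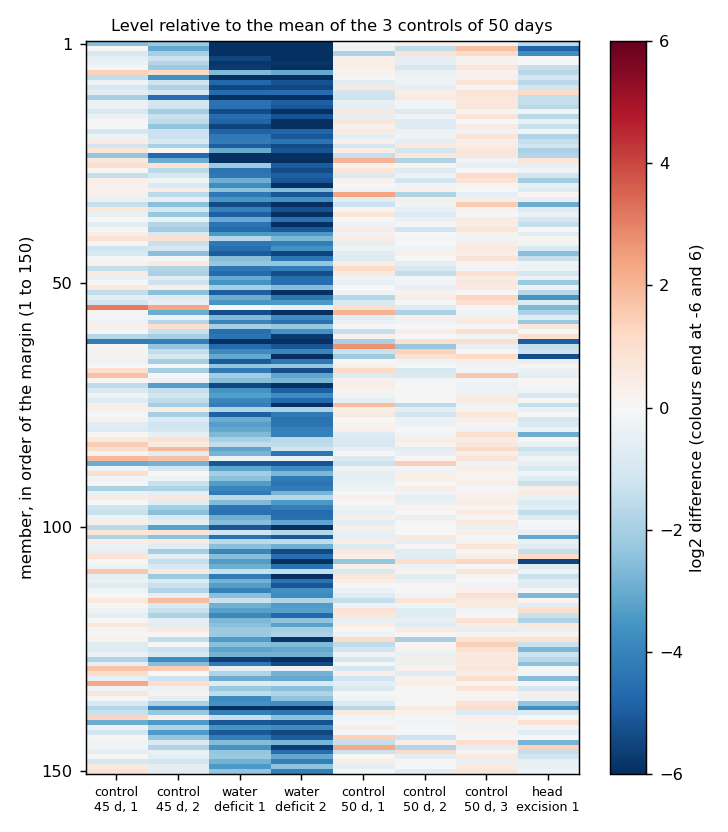
Log2 level of the 150 members (rows, in order of the margin) on the 8 arrays (columns), relative to each probe's mean over the 3 controls of 50 days; blue is lower and red is higher. The 2 water deficit columns are blue almost throughout, control replicate 2 of 45 days is bluer than replicate 1, and the head excision column is paler, with most rows on the blue side.

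Head excision addresses another perturbation, the loss of the reproductive sink, and its array did not enter the ranking. The detection step covered its 3 controls and not the head excision array itself. The median of head excision minus the mean of its 3 controls was -0.70 log2 units over the members, with quartiles of -1.42 and -0.17, against 0.0033 over all 26899 probes, with quartiles of -0.24 and 0.25. The member median was -0.40 with median spot and background signals and a normexp offset of 50. Head excision read lower than the control mean in 126 members (49.6% of all probes) and below all 3 controls in 80 (28.6%). It lay above all 3 controls in 9 members (27.1% of all probes) and within their range in 61. Among members also well above background after head excision, the median difference was -0.67. Of these, 77 lay below all 3 controls (28.2% of all such probes) and 9 above (27.1%). A value lower than the control mean by at least 1 log2 unit, a 2-fold difference, was found in 58 members (3.13% of all probes), and one as much higher in 4 (2.91%). These shares over all probes are not matched for spread, since the members varied more between the 3 controls (median SD 0.60 against 0.22). Taken against each control in turn, the member median was -0.73 for replicate 1, -0.54 for replicate 2 and -1.02 for replicate 3.

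**Figure D5:**
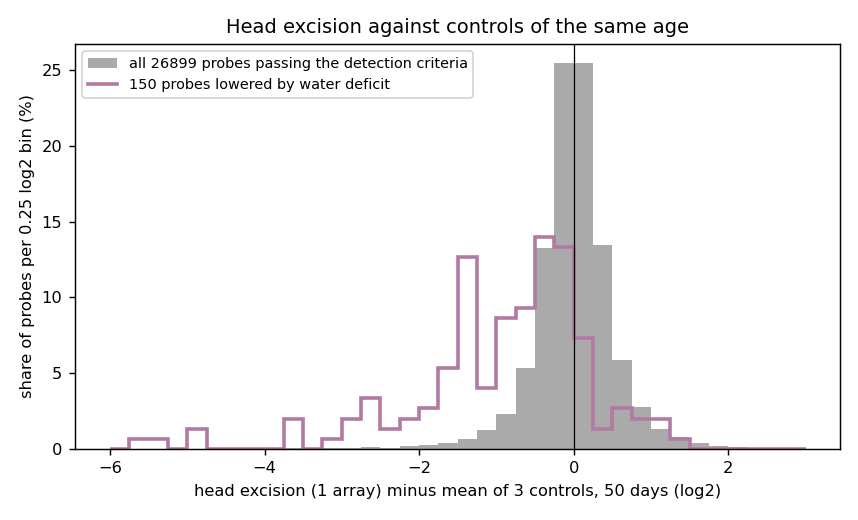
Share of probes (%, vertical axis) by the log2 difference between the head excision array and the mean of the 3 controls of 50 days (horizontal axis, bins of 0.25, values outside -6 to 3 not drawn). The grey histogram of all 26899 probes is centred at 0.0033 and the outline of the 150 members is shifted left, with a median of -0.70.

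With a single head excision array, no member passed a test of its own. In the limma fit of this array against the 3 controls, 0 of the 150 members and 0 of all 40243 probes (0% in either direction) had an adjusted p below 0.05. At an unadjusted p below 0.05 there were 17 members lower and 3 higher after head excision, against 4.51% and 3.8% of the 26899 probes, and 8.69% of all 40243 probes passed it in either direction. The smallest adjusted p from limma among the members was 0.339, for CUST_21813. It read 8.11, 8.57 and 8.45 on the controls and 6.66 after head excision, a difference of -1.72 log2 units with a standard error of 0.24. For CUST_11046, whose values stand above, the difference was -1.62 with a standard error of 0.25 (adjusted p from limma = 0.373). The fit assumes that the lone array varies like the controls, and members that moved together across the same 4 arrays are not independent of each other.

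The head excision difference was also set against detection under water deficit, with no test. Its median was -0.78 log2 units in the 27 members not well above background on either water deficit array. It was -0.49 in the 21 well above background on 1 and -0.73 in the 102 measured on both. Head excision lay below all 3 controls in 12, 11 and 57 of them, respectively. Across the 150 members, the water deficit difference and the head excision difference had a Pearson's r of 0.27, and across all 26899 probes 0.29, given as a description since probes of the same arrays are not independent. The SD over the 3 controls of 50 days and the head excision difference had an r of -0.37 across the members and -0.018 across all probes, and they share the control values. Head excision lay above both water deficit arrays in 142 members (46.5% of all probes), and exceeded their mean by a median of 2.98 log2 units across the 2 slides. The rule chose the members for low water deficit values, so nothing is read from this order or its size.

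The 5 members lowest after head excision were CUST_39432, CUST_11463, CUST_26622, CUST_7683 and CUST_3091. CUST_39432 read 4.85, 8.23 and 8.42 on the controls of 50 days and 1.66 after head excision, where it was not well above background. On the younger slide it read 7.29 and 5.80 in the controls and 3.81 and 0.63 under water deficit. CUST_11463 read 9.46, 12.52 and 12.78 on the older controls and 6.27 after head excision, with 11.80 and 10.65 on the younger controls and 8.50 and 5.51 under water deficit. CUST_26622 read 7.08, 10.00 and 10.05 on the older controls and 4.12 after head excision, with 4.91 and 4.95 on the younger controls and 1.64 and 2.53 under water deficit. In each of these, control replicate 1 of 50 days stood well below the other 2 controls, and the differences of -5.51, -5.31 and -4.93 log2 units had standard errors of 1.89, 1.73 and 1.60 (adjusted p from limma = 0.59, 0.58 and 0.58).

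Control replicate 1 of 50 days was lower than both other controls by at least 2 log2 units in 7 members, a gap chosen here after their values were seen. Head excision lay below all 3 controls in 7 of 7, with differences from -5.51 to -1.74, and in 27 of the 66 probes (40.9%) with this gap among all 26899, the 7 included. Against replicate 1 alone, the differences of the 7 members ran from -3.19 to -0.35, with a median of -2.03. Beside the 3 above and CUST_3091 they were CUST_33513, CUST_10002 and CUST_37837. CUST_10002 read 10.75, 12.88 and 13.74 on the controls and 8.90 after head excision, and CUST_37837 read 8.34, 10.56 and 11.09 on the controls and 6.31 after head excision. CUST_33513 read 10.04, 12.13 and 12.13 on the controls and 9.69 after head excision. Over all members, the median head excision difference was -0.97 log2 units where replicate 1 was the lowest control, -0.63 where replicate 2 was and -0.24 where replicate 3 was. Over all 26899 probes the same medians were -0.09, -0.04 and 0.17. Without replicate 1, the member median was -0.80, and without replicate 3 it was -0.61.

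The 5 members highest after head excision were CUST_29261, CUST_1233, CUST_1736, CUST_37929 and CUST_40672. CUST_29261 read 9.35, 5.32 and 6.53 on the older controls and 8.46 after head excision, so that its difference of 1.40 lay within the spread of its controls. CUST_1736 read 3.97, 5.47 and 5.86 on the older controls and 6.24 after head excision, against 4.43 and 4.04 on the younger controls and 0.50 and 0.55 under water deficit. CUST_40672 read 7.10, 6.73 and 6.70 on the older controls and 7.81 after head excision, a difference of 0.97 log2 units with a standard error of 0.23 (adjusted p from limma = 0.498). Its younger controls read 5.12 and 4.84 and its water deficit arrays 2.43 and 1.12. CUST_1233 read 6.09, 5.04 and 6.18 on the older controls and 6.93 after head excision, and CUST_37929 read 9.18, 7.59 and 8.11 on the controls and 9.36 after head excision. In 4 of these 5, all but CUST_29261, head excision exceeded every control of its age, the opposite side from their water deficit values.

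When each probe was set relative to its own mean over the 8 arrays, 22 of the 150 members fell into 10 sets (8 pairs and 2 of 3 probes) whose patterns agreed within 0.25 log2 units on every array. These sets were formed among the members only. Searched among all 26899 probes, a single partner within this distance was found for 26 members (17.3%) and for 84.8% of all probes. The signal of all probes ranged over a median of 1.05 log2 units across the arrays, against 5.09 in the members. Among the 4034 probes that ranged over at least 2.12 log2 units, the smallest range of a member, such a partner was found for 32.2%. Such agreement is thus not particular to the members. CUST_41065, CUST_31917 and CUST_40976 agreed within 0.21 log2 units while their signal ranged over 5.95 log2 units across the arrays. Their control to water deficit ratios lay between 16.3 and 18.96, and their control to head excision ratios between 3.05 and 3.16. CUST_31845, CUST_7875 and CUST_35619 agreed within 0.15 log2 units over a range of 4.82, with control to water deficit ratios from 8.37 to 8.73 and control to head excision ratios from 1.55 to 1.64. CUST_39010 and CUST_39092 agreed within 0.23 log2 units over a range of 8.26. Whether the probes of a set read 1 transcript was not tested, since no probe sequence was used here.

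The array surface was divided into 4 sections by row and column number. Of the 150 members, 55 (36.7%) lay in the section with high row and low column numbers, where 24.8% of all 26899 probes lay, and 23 (15.3%) in the section with low row and high column numbers, where 25.1% did. The median water deficit difference of all probes was between -0.07 and -0.05 log2 units in each section, and that of the members between -3.53 and -3.05. After head excision, the member median was -0.99 in the section that held 55 of them, and -0.50, -0.65 and -0.42 in the others. The part of array position in these values was not tested. No member spot was marked as non-uniform or saturated on any of the 8 arrays (0 spots each).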

How the data were processed

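Each array was scanned and quantified by the authors with Agilent Feature Extraction, whose version is 10.7.1.1 in the file headers and 9.1 in the submitters' processing notes. The deposited intensity is background subtracted and detrended within the array, with no normalization between arrays. The spot and local background medians are deposited intensities too, and the deposited flags (other values) are 0 or 1 per spot. The authors also deposited log2 values, normalized between arrays in a way the table does not state, which served for the ranking. Each column correlated with the values computed here from its own array at r of at least 0.9998. The scales still differed, with an SD of deposited minus computed values between 0.29 and 0.30 by array. The member median of water deficit minus control was -2.93 on deposited values and -3.14 on those computed here. A margin is thus not a difference of the levels printed beside it.

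Processed signals were corrected by normexp with an offset of 1, log2 transformed and quantile normalized over all spots of the 8 arrays, as in the study's methods, and spots of a probe were averaged. Head excision was compared with its 3 controls by lmFit and eBayes (limma 3.58.1, statmod 1.5.0, R 4.3.3), with Benjamini-Hochberg adjustment over 40243 probes. The fit was tested on simulated data. Precision is limited by how few arrays there are. The members and lists were chosen with earlier results of these data known. Named are the 10 members with the largest margin, the 5 lowest and 5 highest after head excision, the 5 with the highest bound, and the probes at the edge of the ranking; others named were chosen after their values were seen. Gene lists and markers were not applied, since no gene names were linked to the probes here. The study does describe GO terms for many of the unigenes from which the probes were designed.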

Additional observations from a re-analysis of the deposited data

How the results depend on the processing

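The 150 probes were kept fixed except where another ranking or set size is named. Member medians of the 3 contrasts and the counts below and above all controls were recomputed. The limma calls and the count not well above background were also recomputed under the other settings. No member passed the adjusted threshold of limma for head excision under any of them (0 of 150), including all 8 arrays in one fit, which called 109 of 40243 probes, eBayes with trend, which called 247, and a filter on dim probes, which called 7. In the fit of all 8 arrays, the error variance came partly from the arrays of 45 days, whose values chose the members. The main fit left those arrays out for that reason. The median head excision difference was -0.499 log2 units with a normexp offset of 50 and -0.40 with median spot and background signals and that offset, which shrink differences of dim probes by construction, and the median water deficit difference was -1.98 and -1.49. Between -0.803 and -0.61 the head excision median held with any 1 control left out. The counts of members below and above all controls then ran from 88 (32.5% of all probes, without replicate 3) to 101 (36.4%, without replicate 2) and from 10 (35.4%, without replicate 2) to 17 (37.9%, without replicate 1), and 2 controls span less than 3 by construction. The water deficit median ran from -3.58 to -2.72 with 1 array left out, an alternative chosen after seeing the data, and the difference between controls of 50 and 45 days from 0.17, without control replicate 2 of 45 days, to 1.13, without replicate 1, and was 0.41 without control replicate 3 of 50 days. With no normalization between arrays, the median over all 26899 probes shifted to 0.45 log2 units for water deficit and 0.34 for age, against -2.66 and 1.00 in the members. The flag for positive and significant signal was lacking on both water deficit arrays in 3 members, against 27 not well above background on both. The latter count was 29 of the 150 ranked by scanner values, 20 of the 75 and 37 of the 300 largest margins. Of the 150 members, 148 were also among the 150 largest margins by the scanner values, 91 with an offset of 50 and 75 with median signals. No paired analysis was possible because the water deficit contrast has no test here and head excision shares 1 replicate number with its controls. As a description, the replicate 1 and 2 pairs of water deficit and control gave member medians of -3.21 and -3.12. With the numbers crossed, the median was -2.29 for water deficit replicate 1 against control replicate 2. It was -4.01 for water deficit replicate 2 against control replicate 1. The replicate differences of water deficit and control had r of 0.29 over all 26899 probes, from 1 pair of groups, while the labels do not say that a number marks a block.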
